A study of Rattus norvegicus and Mus musculus with 14 samples.

Results

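A pair of regulators of the kinase complex mTORC1 (Akt1s1 and Rraga), a pair of translation initiation factors (Eif4b and Eif4g1) and an aminoacyl-tRNA synthetase (Vars) were followed across 14 arrays. They were found by symbol: every probe whose only gene symbol in the platform annotation was one of these 5 was taken, which gave 6 of 1152 probes, 2 of them for Akt1s1. The annotation put a single symbol on 384 probes of 342 genes. The 5 genes were picked with earlier results of these arrays known, chiefly low values under NMDA in the cultures of the MEK set. Their values in that comparison are therefore given as a description, with no test.

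The cultures were rat embryonic cortical neurons in 2 sets, named MEK and NOS in the labels. Each set held 2 experiments with 1 array for each of 3 treatments: a control, written CSS in the labels; NMDA, which opens a class of glutamate receptor that admits calcium; and NMDA plus a blocker. In the MEK set the blocker was PD98059, directed at the kinase MEK, which activates ERK. Nitroarginine, directed at nitric oxide synthase, took its place in the NOS set. The last 2 arrays were brain cortex of an adult nNOS knockout mouse and of a wild-type littermate, both c57bl. Doses and times are not in the labels. Whether the arrays of a treatment hold independent cultures is not stated. The p-values below therefore speak for the spread among these arrays alone, and that spread may be technical.

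mTORC1 is a kinase complex that promotes protein synthesis when growth factors, energy and amino acids are in supply. Rag GTPases, of which Rraga encodes one, bring it to the lysosome when amino acids are present, and PRAS40, the product of Akt1s1, restrains it until the kinase Akt phosphorylates PRAS40. Among its downstream targets are proteins that govern the cap-binding complex, where eIF4G1 is the scaffold and eIF4B assists the helicase. Valyl-tRNA synthetase, encoded by Vars, loads valine onto its transfer RNA. In neurons this pathway is known for supporting protein synthesis in dendrites during synaptic plasticity.

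For 3 of the 5 genes, Akt1s1, Eif4g1 and Vars (now Vars1), the RefSeq promoter table of rat build GRCr8 had an entry. Rraga and Eif4b had none. The sequence CACGTG, the same on both strands and a core that E-box factors of the USF, MYC and TFEB families bind, lay in all 3 of these windows. A window runs from 250 bases before to 50 after the annotated start. The motif was chosen after the windows had been read, so the match is a description. The windows below are 30 bases each, 5′ to 3′ on the gene's strand, with the motif in capitals, and are shown because these 3 members share the motif.
Akt1s1, chr1:104469635-104469664, plus strand: taagatttaggtCACGTGgtgtagaccaca
Vars1, chr20:3824973-3825002, minus strand: cacaaagggggaCACGTGggtgccgctggc
Eif4g1, chr11:93746404-93746433, minus strand: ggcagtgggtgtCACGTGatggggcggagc
The motif began 189 bases before the start of Akt1s1, 39 before that of Vars1 and 54 before that of Eif4g1. The Eif4g1 window held a further CACGTG, just after the start (chr11:93746335-93746364, minus strand), so it had 2 and the other windows 1 each. Over all 33469 windows of 300 bases, 6.42% held CACGTG. The cyclic AMP response sequence TGACGTCA, also the same on both strands and with the letters ACGT in common with the first motif, was in 0 of the 3 windows and in 1.83% of all.

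The values were Z-scores, in which each array has a mean of 0 and 1 unit is about 1 SD over its probes. They give no fold change, and levels of different probes cannot be ranked against each other. The arrays differed in quality. The control column of MEK experiment 1 was deposited 1 row away from its probes: its r with the median rat array over probes was 0.10 as deposited and 0.83 once moved down by 1 row. It was used moved. Moved, it reached an r of 0.858 to 0.867 against the rest of its set, whose own pairs had 0.971 to 0.995. Between the experiments of the NOS set r was 0.454 to 0.617. Median percentiles over the rat arrays ran from 13.1 (Nefl) to 94.2 (Uchl1) for the 6 neuron marker probes and from 24.1 (Gfap) to 79.2 (Glul) for the 3 astrocyte marker probes. Percentiles of different probes cannot be ranked and a Z-score has no zero level, so these values show neither which cell type was more abundant nor that a marker was absent.

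**Figure D1:**
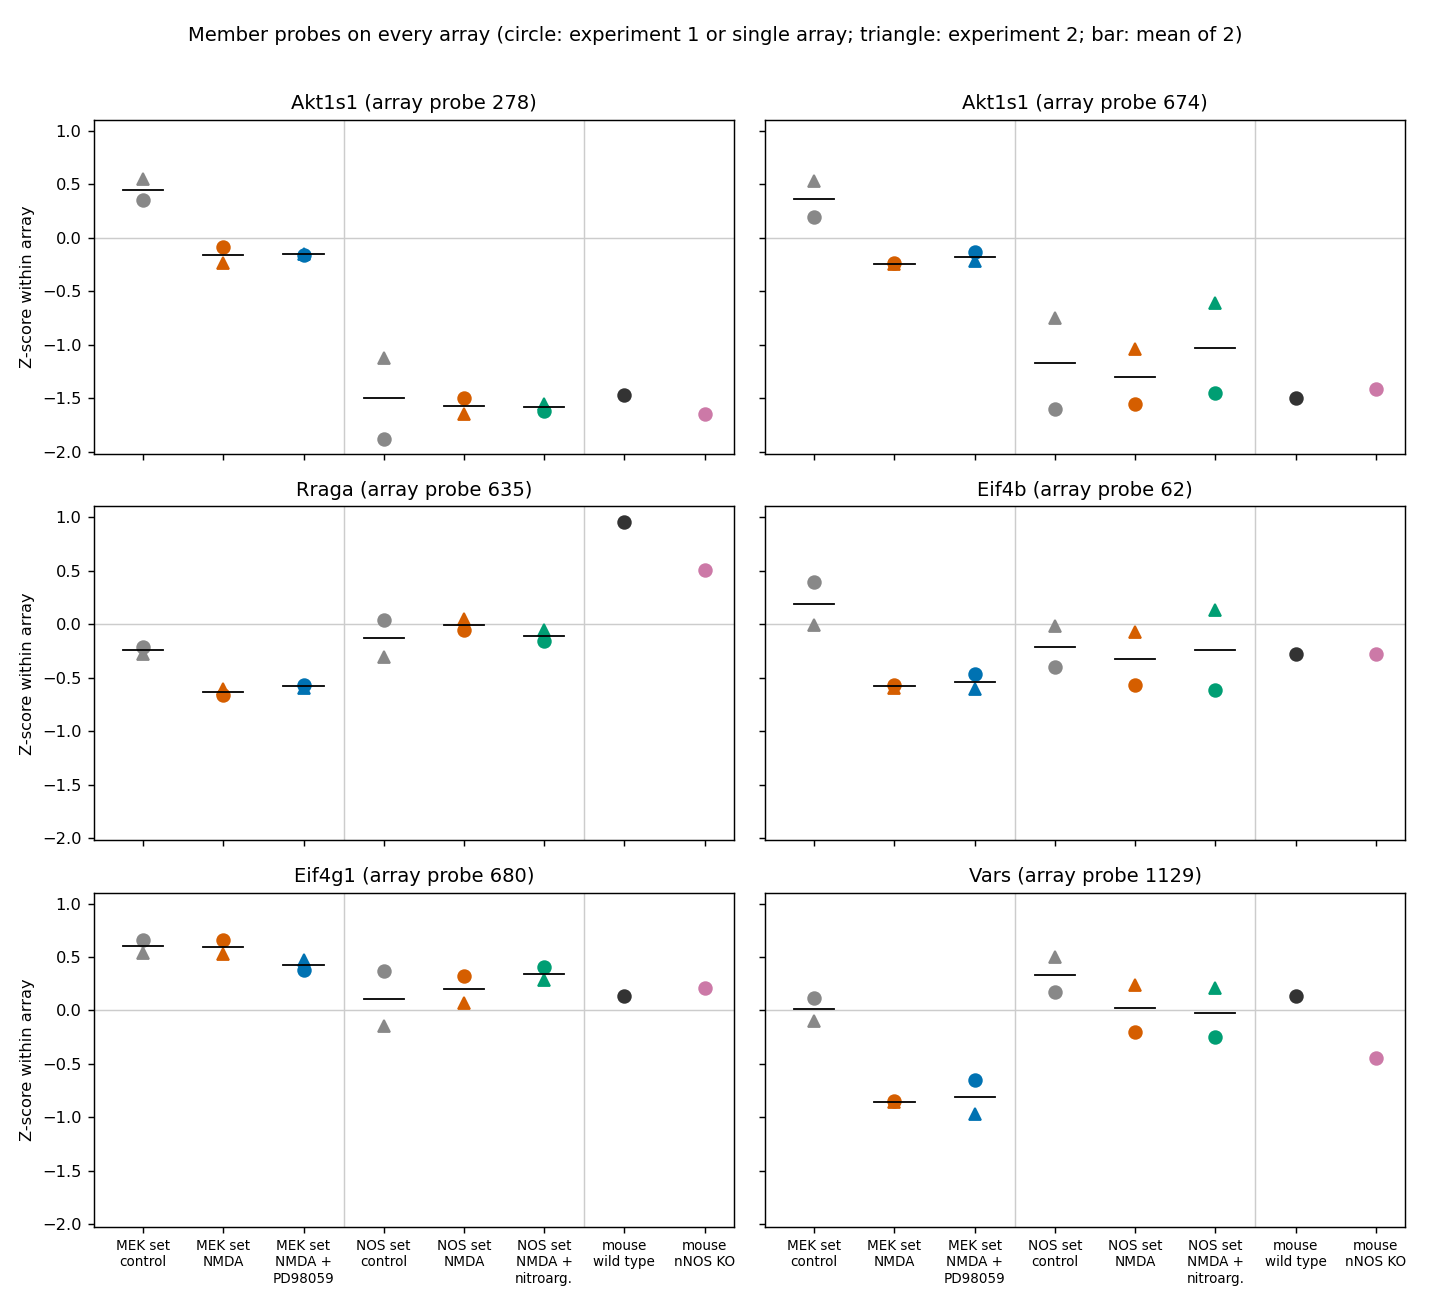
Z-score within the array (vertical axis) of each member probe in the 8 groups (horizontal axis). Circles are experiment 1 or the single mouse arrays, triangles experiment 2 and bars the mean of 2 arrays. Both MEK set controls lie above all 4 arrays with NMDA for Akt1s1, Rraga, Eif4b and Vars, and both Akt1s1 probes sit lower in the NOS set and in mouse cortex than in the MEK set.

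Akt1s1 restrains mTORC1. Its probe 278 was at 0.35 and 0.55 in the MEK set controls of experiments 1 and 2. With NMDA it was at -0.09 and -0.24, and with NMDA and PD98059 at -0.16 and -0.15. All 4 arrays with NMDA were thus below both controls, and the arrays with PD98059 stood next to those with NMDA alone. Probe 674 was at 0.19 and 0.53 in the controls, -0.24 and -0.25 with NMDA, and -0.13 and -0.22 with PD98059. The second probe therefore showed the same order of groups. Both carry the same mouse transcript in the annotation, so they are repeats of 1 target and not independent members. Over the 12 rat arrays they differed by a median of 0.16 Z units and by at most 0.94. This was rank 2 for closeness among 40 pairs of named probes that share an accession, whose median was 0.60.

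Rraga encodes RagA, a GTPase that recruits mTORC1 to the lysosome. It was at -0.21 and -0.28 in the MEK set controls, -0.66 and -0.61 with NMDA, and -0.57 and -0.59 with PD98059. The controls did not overlap with either treated group, and the treated groups lay within 0.1 of each other. RagB is a close relative of RagA, and a probe may not tell their transcripts apart.

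Eif4b encodes a cofactor of the helicase that unwinds the leader of an mRNA for ribosome scanning. It was at 0.39 and -0.0095 in the MEK set controls, -0.57 and -0.59 with NMDA, and -0.47 and -0.61 with PD98059. The controls were again the highest arrays of the set, but they stood well apart from each other, while the arrays with NMDA were almost equal. Eif4g1, the scaffold of the cap-binding complex, was at 0.66 and 0.54 in the controls, 0.66 and 0.53 with NMDA, and 0.38 and 0.47 with PD98059. Controls and NMDA arrays overlapped for this gene, and only the arrays with PD98059 were below. The rat annotation lists pseudogenes of both initiation factors, which the probes may not tell apart from the genes.

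Vars supplies valyl-tRNA to the ribosome. It was at 0.12 and -0.098 in the MEK set controls, -0.85 and -0.86 with NMDA, and -0.65 and -0.97 with PD98059. All 4 arrays with NMDA were more than 0.5 below the lower control. The difference was the widest of the members in this set.

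Under NMDA in the MEK set the differences from control were thus -0.61 (SE 0.27) and -0.61 (SE 0.37) Z units for the Akt1s1 probes, -0.39 (SE 0.21) for Rraga, -0.77 (SE 0.32) for Eif4b, -0.0056 (SE 0.24) for Eif4g1 and -0.86 (SE 0.27) for Vars, with n = 2 arrays each. In MEK experiment 2, whose control column was not misaligned, the probes stood far down among all 1152: Akt1s1 at ranks 7 and 8 from the lowest with -0.79 and -0.78, and Vars at rank 10 with -0.76. Eif4b (-0.58) was below all but 3.04% of probes there and Rraga (-0.33) below all but 9.72%. In MEK experiment 1, where differences over all probes spread more widely (SD 0.51 against 0.24), Vars (-0.97) and Eif4b (-0.96) were at percentiles 2.09 and 2.35, and Akt1s1 and Rraga between 15.3 and 16.9. Eif4g1 was in the middle of the probes in both experiments.

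For 5 of the 6 member probes both NMDA arrays lay below both controls, where 20.0% of all probes did, and for the same 5 all 4 arrays with NMDA did (15.7%). For 4, those of Akt1s1, Eif4b and Vars, the difference was -0.4 or lower in both experiments (1.82% of all probes). The same 5 were lower with NMDA in both experiments (24.4% of all probes) and 0 were higher in both (29.3%). Since the members were chosen on this comparison, nothing is read from these counts. Limma called 0 probes in it (0% of 1152, adjusted p under 0.05), with 16 at an unadjusted p under 0.05. Some values changed with a running median over 25 probes in file order removed. The Akt1s1 probes were then at -0.30 and -0.27, Rraga at -0.047, Vars at -0.47 and Eif4g1 at 0.41. Whether file order follows the place of the spots on the array was not tested. With the misaligned control left out, the differences were -0.75 for Vars and -0.57 for Eif4b. The summed Z-score of the 6 probes of neuron markers (5 of 17 listed genes) was -1.1 and 1.09 in the MEK set controls of experiments 1 and 2, 1.79 and 2.02 with NMDA, and between 0.66 and 1.48 with PD98059, which overlapped the controls. In experiment 2, Mapt (-0.21), Stmn2 (-0.15) and Hpca (-0.052) were lower with NMDA and the other 3 probes higher. That of the 3 astrocyte probes (Gfap and Glul, 2 of 9 listed genes) was between -0.61 and -0.08 in the controls and between -0.58 and -0.49 with NMDA. The microglia gene Csf1r, 1 of 6 listed, was at 0.46 and 0.55 in the controls and between 0.37 and 0.48 with NMDA, and no listed oligodendrocyte or endothelial gene was among the named probes. The part of cell makeup in the result was not tested, and in bulk cultures fewer cells of a type and less RNA per cell cannot be told apart.

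**Figure D2:**
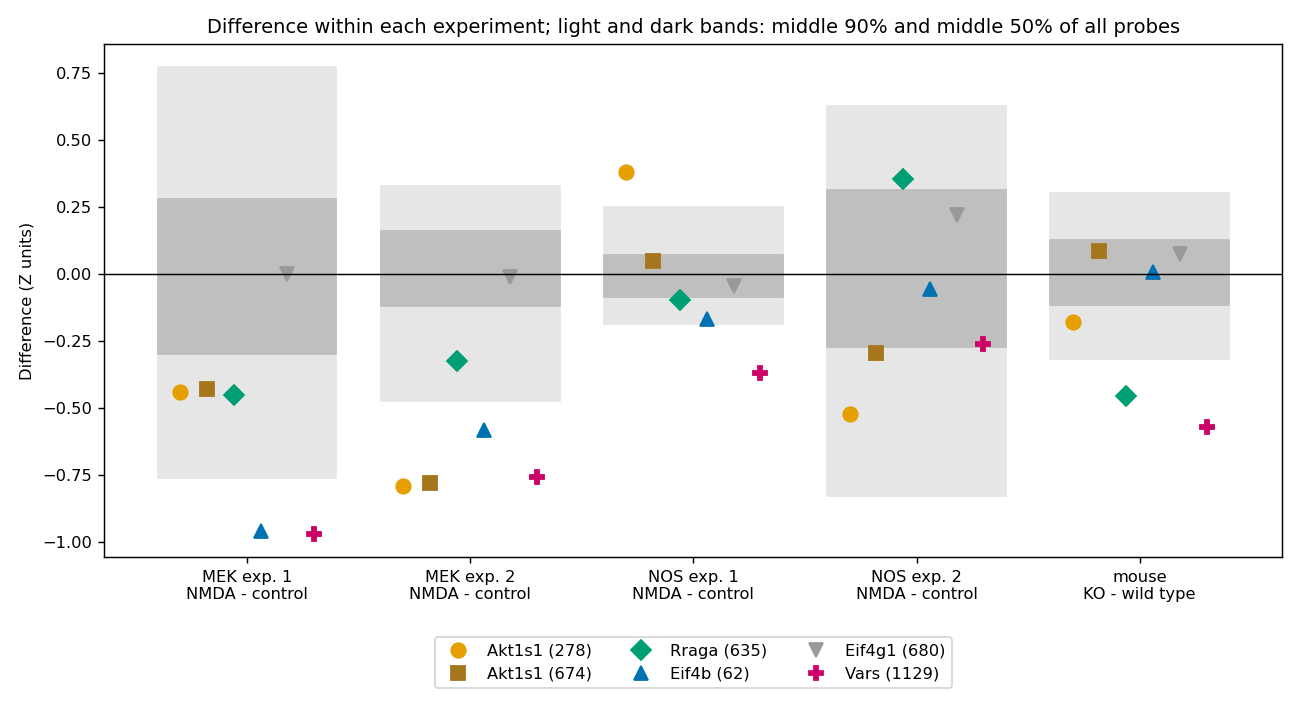
Difference in Z units (vertical axis) for NMDA minus control in each of the 4 experiments and for knockout minus wild-type mouse cortex (horizontal axis). Points are the member probes; the light and dark bands hold the middle 90% and the middle 50% of all probes in that comparison. Vars is below 0 in all 5 comparisons. The Akt1s1 probes are far below the light band in MEK experiment 2 but within it in MEK experiment 1. In the NOS set neither is below the band, and probe 278 is above it in experiment 1, at 0.38.

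The NOS set asked the same question of NMDA with other arrays. Vars was again lower with NMDA in each experiment: it was at 0.17 (control) and -0.20 (NMDA) in NOS experiment 1, and at 0.50 and 0.24 in NOS experiment 2. The difference of -0.37 in experiment 1 was the rank 2 value from the lowest of 1152 probes, and that of -0.26 in experiment 2 was at percentile 26.0, where differences over all probes spread more widely (SD 0.44 against 0.13). Pooled over both experiments Vars was at -0.32 (SE 0.27) and did not pass (limma, adjusted p = 1; 0.69 with experiment as a block). It was at -0.063 with the running median removed. Limma called 0% of all probes in this comparison, with 2 at an unadjusted p under 0.05. Its arrays overlapped between treatments, with NMDA of experiment 2 above the control of experiment 1.

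Eif4b was at -0.40 and -0.57 in control and NMDA of NOS experiment 1 and at -0.0145 and -0.07 in experiment 2. It too was lower in both, by small amounts (-0.17 and -0.056), and its pooled difference of -0.11 (SE 0.32) did not pass (limma, adjusted p = 1). With experiment as a block the SE was 0.16, and the difference did not pass either (limma, adjusted p = 0.849). Over all probes, 23.8% were lower with NMDA in both NOS experiments, against 2 of the 6 member probes, and 26.4% were higher in both, against 0 of the 6. For 0 of the 6 did both NMDA arrays lie below both controls (4.60% of all probes) or above them (5.73%). Of all probes 4.60% were lower in all 4 experiments, MEK set included, and among the members Eif4b and Vars were. The MEK set part chose the members, so nothing is read from that share.

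The regulators of mTORC1 did not keep one direction in the NOS set. Akt1s1 probe 278 was at -1.88 (control) and -1.50 (NMDA) in experiment 1, and at -1.12 and -1.64 in experiment 2, so NMDA was higher by 0.38 in one and lower, at -0.52, in the other. Probe 674 was at -1.60 and -1.55 in experiment 1 and at -0.75 and -1.04 in experiment 2. Both stood low within the NOS set arrays, probe 278 at percentiles 1.04 to 8.68 and probe 674 at 3.30 to 23.8. Whether so low a position left room for a further fall was not tested. Rraga was at 0.04 and -0.059 in experiment 1 and at -0.30 and 0.05 in experiment 2. The pooled differences were -0.072 (SE 0.27), -0.12 (SE 0.37) and 0.13 (SE 0.21), in that order, and none passed (limma, adjusted p = 1 for each). Eif4g1 went from 0.37 to 0.32 in experiment 1 and from -0.15 to 0.074 in experiment 2. Its pooled difference of 0.086 (SE 0.24) did not pass either (limma, adjusted p = 1). With experiment as a block the SEs were 0.21 and 0.16 for Akt1s1 probes 278 and 674, 0.16 for Rraga and 0.15 for Eif4g1. None of these passed with the block (limma, adjusted p of 0.833 or higher).

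The NMDA difference in the NOS set minus that in the MEK set was 0.66 (SE 0.45) for Eif4b and 0.55 (SE 0.38) for Vars. It was 0.54 (SE 0.38) and 0.48 (SE 0.52) for the Akt1s1 probes, 0.52 (SE 0.30) for Rraga and 0.092 (SE 0.34) for Eif4g1. The median of this difference over all probes was 0.0095, so a value above 0 was common. Members chosen for low MEK set values will tend to lie above 0 here, so the member values are a description with no test. Akt1s1 stood low in the NOS set arrays, and whether that limited its NMDA difference there was not tested. Limma called 0% of all probes in this interaction, with 4 at an unadjusted p under 0.05, and 0 of the members. With the column left as deposited, Akt1s1 probe 674 was at -0.013 and Rraga at 1.35. With the running median removed, Akt1s1 was at 0.14 and 0.098, Rraga at 0.10 and Eif4g1 at -0.33. Leaving out 1 array at a time gave 0.16 to 0.92 and 0.054 to 0.91 for Akt1s1 and -0.16 to 0.35 for Eif4g1, while Eif4b (0.41 to 0.91), Vars (0.33 to 0.77) and Rraga (0.34 to 0.69) moved less.

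A separate feature of Akt1s1 was its level in each set. Probe 278 ran from -0.24 to 0.55 in the 6 MEK set arrays (mean 0.044, SD 0.33) and from -1.88 to -1.12 in the 6 NOS set arrays (mean -1.55, SD 0.25). In the mouse arrays it was at -1.65 (knockout) and -1.47 (wild type). The MEK set and the NOS set did not overlap, and mouse cortex stood with the NOS set. In rank within the array, the probe was at percentiles 41.0 to 63.0 in the MEK set and 1.04 to 8.68 in the NOS set. Probe 674 had a mean of -0.020 (SD 0.32) in the MEK set and -1.17 (SD 0.43) in the NOS set, and was at -1.41 and -1.50 in the knockout and wild type.

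The MEK set mean minus the NOS set mean was 1.60 for probe 278 and 1.15 for probe 674, ranks 16 and 60 from the highest of 1152. Of all probes, 11.9% had all 6 MEK set arrays above all 6 NOS set arrays. Without the misaligned array and NOS experiment 2 the differences were 1.65 and 1.48. The 24 probes nearest to each in file order had median differences of -0.033 and -0.24, and all 24 were below the Akt1s1 probe in each case. All 6 arrays of the MEK set lay below all 6 of the NOS set for 14.9% of all probes and for 0 of the member probes. For the other members the same difference was -0.41 (Rraga), -0.052 (Eif4b), 0.32 (Eif4g1) and -0.66 (Vars), with arrays of the sets overlapping. No test was made, since set, culture and array run cannot be told apart.

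**Figure D3:**
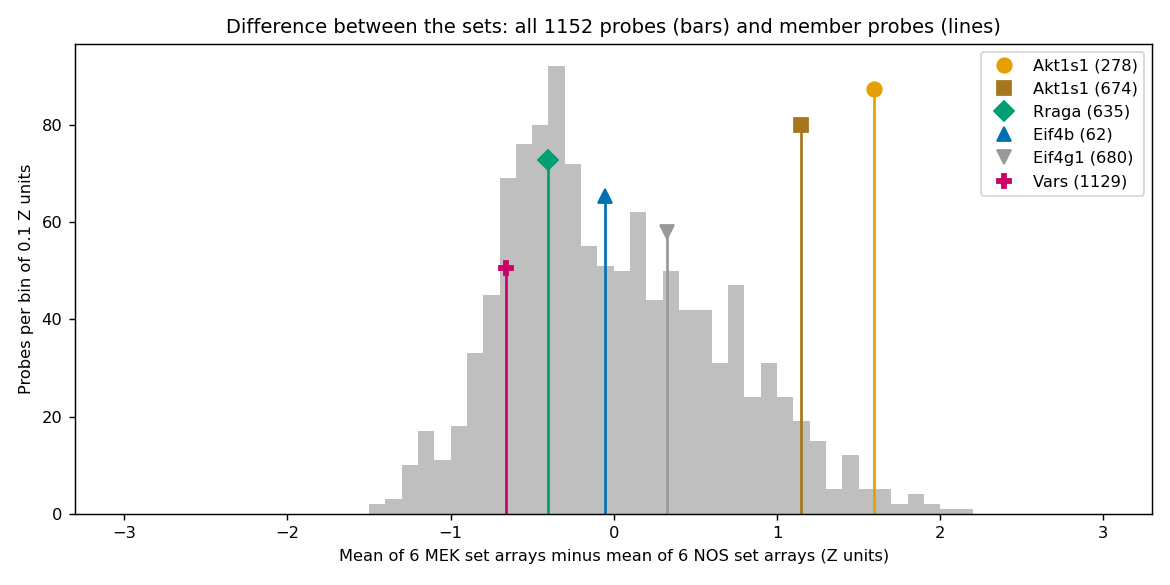
Mean of the 6 MEK set arrays minus mean of the 6 NOS set arrays in Z units (horizontal axis), as the number of probes per bin of 0.1 (vertical axis). Bars are all 1152 probes and lines the member probes, whose heights carry no value. Both Akt1s1 probes, at 1.15 and 1.60, lie toward the right end, and the other members between -0.66 and 0.32.

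Ordered by group mean, Akt1s1 probe 278 was highest in the MEK set control (0.45, SD 0.14), followed by PD98059 (-0.16, SD 0.0056) and NMDA (-0.16, SD 0.10) and then by all NOS set groups (-1.50 to -1.59, SD 0.051 to 0.54). Neighbours within the latter 2 steps did not differ beyond their spread. Vars was highest in the NOS set control (0.34, SD 0.23), with NMDA (0.019, SD 0.31), MEK set control (0.011, SD 0.15) and nitroarginine (-0.021, SD 0.32) close together below it. It was lowest with PD98059 (-0.81, SD 0.23) and NMDA (-0.85, SD 0.0037) in the MEK set, and these lowest groups did not differ beyond their spread. Rraga was highest in the NOS set groups (-0.0044 to -0.13, SD 0.077 to 0.24), then in the MEK set control (-0.25, SD 0.050), and lowest with PD98059 (-0.58, SD 0.016) and NMDA (-0.63, SD 0.038). The MEK set control arrays overlapped with those of the NOS set control. For Eif4b the MEK set control (0.19, SD 0.28) was highest, the NOS set groups lay between -0.21 and -0.32 (SD 0.28 to 0.53), and NMDA (-0.58, SD 0.016) was lowest. Eif4g1 was highest in MEK set control and NMDA (0.60, SD 0.085, and 0.59, SD 0.093) and lowest in the NOS set control (0.11, SD 0.36). Between them, the PD98059 arrays (0.43, SD 0.065) lay below all NMDA arrays of the MEK set, and the other neighbours in the order overlapped.

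PD98059 was added to ask what NMDA does when MEK is blocked. Both arrays with it stayed below both controls for every member probe, but the members were chosen for low values against these controls. PD98059 with NMDA minus NMDA alone was 0.0078 (95% interval -0.60 to 0.62) and 0.069 (-0.77 to 0.91) Z units for Akt1s1, 0.051 (-0.43 to 0.53) for Rraga, 0.042 (-0.67 to 0.75) for Eif4b, -0.17 (-0.71 to 0.37) for Eif4g1 and 0.042 (-0.57 to 0.65) for Vars. None passed (limma, adjusted p = 1 for each, n = 2 arrays each), and 0% of all probes did (0 at an unadjusted p under 0.05 as well). For both Akt1s1 probes and for Rraga the upper bound exceeded the size of the NMDA difference, and for Eif4b and Vars it did not. With experiment as a block the intervals were narrower, -0.46 to 0.48 and -0.30 to 0.44 for Akt1s1, -0.30 to 0.41 for Rraga, -0.31 to 0.40 for Eif4b and -0.28 to 0.37 for Vars, and only that of Rraga still reached the size of its NMDA difference. The comparison shares its NMDA arrays with the one that chose the members. The NMDA differences set beside these bounds come from that choice and may be too large. Nothing is therefore read from which bounds reach them.

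Within experiments the sign of the PD98059 difference varied. Vars was at 0.20 in experiment 1, at percentile 96.0 of all probes, and at -0.12 in experiment 2 (percentile 10.4). Eif4b was at 0.10 and -0.016, and Akt1s1 probe 278 at -0.07 and 0.086. Of the members, Eif4g1 was lower with PD98059 in both experiments (-0.28 and -0.057; 12.5% of all probes were), and Rraga (0.09 and 0.013) and Akt1s1 probe 674 (0.11 and 0.028) were higher in both (24.4% of all probes were). Against the controls, which this comparison shares with that of NMDA, both PD98059 arrays lay below both controls for 6 of 6 member probes, where 19.0% of all probes did. Eif4g1 was then at -0.28 and -0.068. The members were chosen for low values against these same controls, so nothing is read from this count.

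Nitroarginine was added to ask what NMDA does when nitric oxide synthase is blocked. With it, Vars was at -0.25 and 0.21 in NOS experiments 1 and 2, next to its NMDA values of -0.20 and 0.24 and below the controls in each experiment. The nitroarginine minus NMDA difference for Vars was -0.040 (95% interval -0.65 to 0.57). Rraga (-0.16 and -0.052 with nitroarginine) was likewise slightly below NMDA in each experiment, at -0.10 (-0.58 to 0.38). Akt1s1 was at -1.62 and -1.55 on probe 278 and at -1.45 and -0.61 on probe 674, with differences of -0.015 (-0.63 to 0.60) and 0.27 (-0.57 to 1.10). Eif4b, at -0.62 and 0.13, differed by 0.078 (-0.63 to 0.79), and Eif4g1, at 0.41 and 0.28, by 0.15 (-0.40 to 0.69). None passed (limma, adjusted p = 0.998 for each), and 0% of all probes did (1 at an unadjusted p under 0.05). With experiment as a block the intervals were narrower, -0.36 to 0.28 for Vars, -0.46 to 0.25 for Rraga and -0.28 to 0.43 for Eif4b. For Akt1s1 they were -0.48 to 0.45 and -0.10 to 0.63, and for Eif4g1 -0.20 to 0.49. With the block none passed either (limma, adjusted p of 0.956 or higher). For 0 of the member probes did both nitroarginine arrays lie below both controls, as for 4.51% of all probes. Of the members, Akt1s1 probe 674 and Eif4g1 were higher with nitroarginine in both experiments, as 29.5% of all probes were, and Rraga and Vars were lower in both, as 31.4% were.

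In mouse cortex, with 1 array per genotype and so no replicate check, Vars was at -0.44 in the nNOS knockout and 0.13 in the wild type. Its difference of -0.57 had rank 15 from the lowest of 1152 probes. Rraga was at 0.51 in the knockout and 0.96 in the wild type, a difference of -0.45 at rank 26. Vars was thus the only member 0.5 or more lower in the knockout, as 1.56% of all probes were, and no member was 0.5 or more higher (0.781% of all probes). At 0.4, a cut that the design did not set, Rraga was lower as well as Vars (2.86% of all probes), and nothing is read from that. Eif4b was at -0.28 in both mice, Eif4g1 at 0.21 and 0.14, and the Akt1s1 probes differed by -0.18 and 0.087, in opposite directions. The Akt1s1 and Vars probes carry mouse entries in the annotation and were hybridised to RNA of both species.

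Most other genes of the mTORC1 pathway list were not low with NMDA in both MEK experiments, but the members had been chosen for low values there and these genes had not, so the contrast is no result. Of the mTORC1 pathway list the array held 7 further genes on 8 probes, and 6 of the 8 were higher with NMDA in both MEK experiments while 1 was lower in both, with a median of 0.17 Z units against 0.0041 over all probes. Of all probes, 29.3% were higher in both and 24.4% lower in both. Tsc2, the tuberin subunit that inhibits mTORC1 through the GTPase Rheb, was at 0.60 and 0.15. Slc3a2, the heavy chain of amino acid transporters, was at 0.69 and 0.15, and Rps6, a ribosomal protein that S6 kinase phosphorylates, at 0.86 and 0.072. These genes were on the other side of 0 from Akt1s1 and Rraga in both experiments, by little in experiment 2. Mapkap1, a subunit of mTORC2, was at 0.06 and 0.17, and Ywhae, a 14-3-3 protein, at 0.17 and 0.25 on one probe and 0.26 and 0.0019 on the other. Wdr59, a subunit of the GATOR complex that controls the Rag GTPases, was at -0.13 and 0.11. Slc38a9, a lysosomal amino acid sensor that acts with the Rag GTPases, was the one that was lower in both, at -0.44 and -0.013. Its value in experiment 1 equalled that of Akt1s1 probe 278.

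In the NOS set 4 of these 8 probes were lower in both experiments and 3 higher in both (median -0.10 against 0.023 over all probes), where 23.8% and 26.4% of all probes were. Tsc2 was at -0.048 and -0.34 there, Slc3a2 at -0.023 and -0.47, and Wdr59 at -0.038 and -0.28. Slc38a9 was lower here too, at -0.14 and -0.22, so it was below control in all 4 experiments. Limma called 0 of the 11 probes of the whole list higher and 0 lower in each of the 6 comparisons (lowest adjusted p = 0.998), with at most 1, a member, at an unadjusted p under 0.05.

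**Figure D4:**
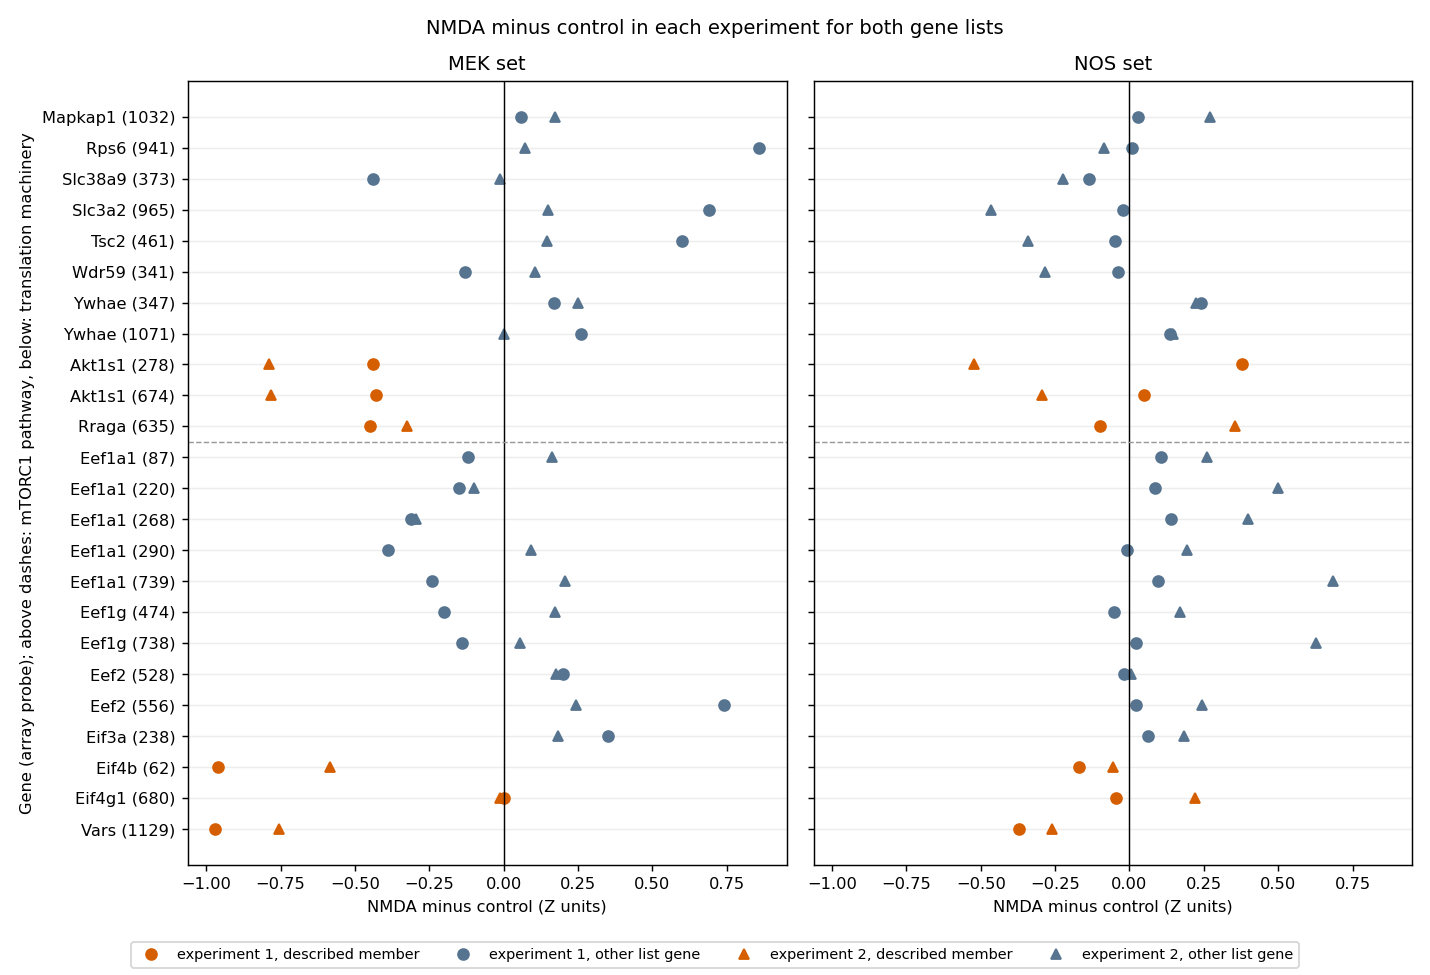
NMDA minus control in Z units (horizontal axis) for every probe of the mTORC1 pathway list (above the dashes) and the translation machinery list (below), in the MEK set (left) and the NOS set (right). Circles are experiment 1 and triangles experiment 2; orange marks the described members. In the MEK set Akt1s1, Rraga, Eif4b and Vars lie left of 0 in both experiments, at -0.33 to -0.97. Eif4g1 lies close to 0, and most other list probes lie nearer to 0 or to the right. The members were chosen on the MEK set values, so this contrast is no result.

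Of the translation machinery list the array held 4 further genes on 10 probes: Eif3a, a subunit of the initiation factor that joins the small ribosomal subunit, Eef2, the translocase of elongation, and Eef1a1 and Eef1g, which deliver aminoacyl-tRNA or recharge the factor that does. With NMDA in the MEK set, 3 of the 10 were higher in both experiments and 2 lower in both (29.3% and 24.4% of all probes), with a median of -0.015 against 0.0041 over all probes. Eif3a was at 0.35 and 0.18 and Eef2 at 0.20 and 0.18 on one probe and 0.74 and 0.24 on the other. These initiation and elongation genes were on the other side of 0 from Eif4b. Eif4b had been chosen for low values in this comparison and they had not, so the contrast is no result. Of the 10 probes, 7 were lower and 3 higher in experiment 1, and 2 were lower and 8 higher in experiment 2. The 2 probes that were lower in both were of Eef1a1, at -0.15 and -0.10 and at -0.31 and -0.29, and its 3 other probes were lower in experiment 1 and higher in experiment 2.

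In the NOS set 7 of the 10 were higher with NMDA in both experiments and 0 lower in both (26.4% and 23.8% of all probes), with a median of 0.16 against 0.023 over all probes. The highest values were those of NOS experiment 2, with 0.685 and 0.50 on Eef1a1 probes and 0.63 on one of Eef1g. Probes of 1 gene share their target and are not independent. Limma called 0 of the 13 probes of the whole list higher and 0 lower in each of the 6 comparisons (lowest adjusted p = 0.998), with at most 2, both members, at an unadjusted p under 0.05.

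Among the members, treatment patterns were most alike for Eif4b and Vars. After subtracting the mean of the 3 arrays of the same set and experiment, their r over the 12 rat arrays was 0.93, that of the 2 Akt1s1 probes 0.83 and that of Rraga with Eif4b 0.84. Eif4g1 had 0.035 with Vars and -0.081 to 0.42 with the others. These are descriptions: the arrays of an experiment are centred together, and the misaligned array is among the 12. The 12 also include the MEK set control and NMDA arrays on which the members were chosen. Members chosen for a shared shift there will be alike by this measure, so nothing is read from r among them.

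The named probes of other genes most like Eif4b by the same measure were Mef2d (r = 0.98), an activity-regulated transcription factor, Top1 (0.96), a DNA topoisomerase, and Vars (0.93). Those most like Vars were Top1 (0.97), Eif4b (0.93) and Mef2d (0.90), so Mef2d and Top1 were in both lists. Rraga was most like Cisd2 (0.96), Dusp8 (0.93), a phosphatase of MAP kinases, and Hp1bp3 (0.93). Akt1s1 probe 278 was most like Adpgk (0.88), Snap23 (0.85) and Golm2 (0.79), and probe 674 like Adpgk (0.82), Eif4b (0.79) and Mef2d (0.76). The Snap23 probe, number 277, is the row before Akt1s1 probe 278 in the table, and whether the spots adjoin was not tested. Eif4g1 was most like Aatk (0.82), Poll (0.80) and Xpr1 (0.75). Each trio holds the 3 highest r among 381 or 382 probes searched.

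Of the 11 other list genes with a promoter entry, CACGTG was in 2 of 13 windows, those of Eef2 and Eif3a. TGACGTCA was in 1 of the 13. With 3 member windows, no comparison of the shares was made.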

How the data were processed

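The authors deposited 1 table of scores for 1152 probes on 14 arrays. Each column has a mean of 0 and most an SD near 1, so they are Z-scores within arrays; the steps and the scale behind them are not given in the sources used here, and a higher score was read as a brighter probe. The platform annotation named 384 probes with 1 symbol, 6 with several and 762 with none. The members and lists were chosen with earlier results of these data known. The rule for named genes was every member probe, the members of both pathway lists and, per member probe, the 3 most alike named probes.

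The control column of MEK experiment 1 was moved down by 1 row, which leaves probe 1 with no value there. The scores went into limma 3.58.1 under R 4.3.3 with 6 group means over 12 rat arrays, 6 residual degrees of freedom, two-sided, Benjamini-Hochberg over 1152 probes, threshold 0.05. Mouse arrays stayed out of the fit, and a difference of 0.5 counted as called there. The design expected log values or Z-scores, and the code of the fit was run on simulated data. These had independent noise and larger shifts than the members showed, so they say nothing of the power here. Depth is not defined for arrays; their number limits the precision.

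The labels number the experiments within each set, so experiment pairs arrays. Deviations of same-numbered arrays from group means had r of 0.87 to 0.93 in the NOS set and -0.14 to 0.073 in the MEK set. Alternatives were the column as deposited, a replicate block, quantile normalization, median and MAD scaling, trend and robust moderation, a filter on probes below the 25th percentile, a running median over 25 probes removed, and arrays left out. Python 3.11.15 with pandas 2.3.3 did the rest.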

Additional observations from a re-analysis of the deposited data

How the results depend on the processing

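As designed, limma called 0 probes in each of the 6 rat comparisons, and with the replicate block also 0. With the block the probes at an unadjusted p under 0.05 went from 16 to 166 for NMDA in the MEK set and from 2 to 57 in the NOS set, and the block changed no call. Leaving out 1 array gave counts of 0 to 1 (NMDA in the MEK set, over both sets and between sets); the 1 came without MEK set control replicate 2. With the block and trend and robust moderation, a setting added after seeing the data, the count was 5 for NMDA in the MEK set and 3 over both sets. Vars was among them in each, in a comparison that chose it. Leaving the misaligned array out of the plain block gave 0.

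Vars kept its sign for NMDA in both sets in all 22 alternatives (-0.97 to -0.47 in the MEK set, -0.54 to -0.063 in the NOS set), Eif4b (-0.97 to -0.42) and Rraga (-1.22 to -0.047) in the MEK set in 22, and Akt1s1 in 21 (probe 278, -1.25 to -0.30, dropped by the filter on dim probes) and 22 (probe 674, -0.80 to -0.11). Uncalled values near 0 changed sign, and the cause was not tested. For NMDA in the NOS set, median and MAD scaling gave 0.21 and 0.11 for Akt1s1 probes 278 and 674, and leaving out NOS experiment 2 gave 0.38 and 0.049 for them, -0.099 for Rraga and -0.046 for Eif4g1, and -0.044 for Eif4b under nitroarginine. With the running median removed, PD98059 minus NMDA was -0.0052 for Eif4b, -0.073 and -0.010 for Akt1s1 and -0.0054 for Vars. Leaving out 1 array at a time, NMDA in the NOS set ran from -0.45 to 0.31 and -0.55 to 0.30 for Akt1s1 probes 278 and 674, -0.36 to 0.14 for Eif4b, -0.17 to 0.34 for Eif4g1 and -0.044 to 0.30 for Rraga. PD98059 minus NMDA ran from -0.066 to 0.082 for Akt1s1 probe 278, -0.028 to 0.11 for Eif4b and -0.12 to 0.20 for Vars. Nitroarginine minus NMDA ran from -0.086 to 0.057 and -0.16 to 0.69 for Akt1s1 probes 278 and 674, -0.30 to 0.45 for Eif4b and -0.27 to 0.19 for Vars. For the knockout, 3 alternatives gave -0.84 to -0.49 for Vars and -0.50 to -0.41 for Rraga. With 2 arrays per group, the intervals in the text give the range of differences that these arrays allow, and not what could be detected. Those without the block leave the pairing by experiment unused. For NMDA in the NOS set the SEs of the member probes were 0.21 to 0.37 without the block and 0.14 to 0.21 with it.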
